A study of Mus musculus with 13 samples.

Results

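The nuclear genes for the subunits of oxidative phosphorylation were examined in mouse mammary glands with a conditional knockout of Jak1 and in wildtype control glands. Members were all gene symbols of the FPKM tables that begin with Nduf followed by a letter of the set a, b, c, s or v and a digit, the symbols Sdha to Sdhd, those beginning with Uqcr, those beginning with Cox and a digit from 4 to 8, and those beginning with Atp5. The rule found 84 members among 23951 symbols, of which 37 belonged to complex I, 4 to complex II, 8 to complex III, 18 to complex IV and 17 to complex V. The filter of 1 FPKM or more in 3 libraries of a table was passed by 80 members at lactation and by 82 at involution. FPKM, the deposited unit, is a count of mapped fragments scaled by the length of the transcript and the size of the library.

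RNA sequencing was performed on whole glands at day 7 of lactation, when milk is being secreted, and at day 2 of involution, when the gland regresses after suckling has ended. There were 3 wildtype control libraries (mice M42186, M43768 and M44175) and 3 Jak1 knockout libraries (M44174, M42734 and M43767) at lactation. At involution there were 3 wildtype control libraries (M44448, M43768 and M43914) and 4 Jak1 knockout libraries (M43196, M43767, M44176 and M44440). The sources used here do not give strain, age or the promoter that drives the deletion, and mouse numbers M43768 and M43767 occur at both stages.

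The respiratory chain passes electrons from NADH through complex I, or from succinate through complex II, to complex III and then through cytochrome c to complex IV, which reduces oxygen. Complexes I, III and IV pump protons across the inner mitochondrial membrane, and complex V, the ATP synthase, uses the resulting gradient to make ATP. A lactating gland needs this ATP for the synthesis and secretion of milk, and brown fat and muscle, which can lie within or next to the gland, are also rich in respiratory chain. The subunits encoded by the mitochondrial genome were not analysed here.

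Jak1, the targeted gene, stood at 6.18 to 14.2 FPKM in control glands and 9.51 to 11.2 FPKM in knockout glands at lactation, and at 24.0 to 24.6 and 17.3 to 26.3 FPKM at involution. These ranges overlapped, and values over the whole gene in whole tissue do not check a deletion in some of the cells, so groups are named as labelled. All 8 luminal epithelial markers had values above 0 in each group. The total FPKM of lactating control M44175 was 871630, against 312976 to 421592 in the other libraries of that stage, and the number of fragments behind a value is unknown. In whole glands, fewer cells of a type and less RNA per cell cannot be told apart.

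Several complex IV subunits exist as a broadly expressed form and as a form restricted to certain tissues, and the results below turn on this pair of classes. Cox8b and Cox7a1 are the forms of heart, skeletal muscle and brown fat, whereas Cox8a and Cox7a2 are their broadly expressed counterparts. Promoter sequences were available for 69 of the 84 members, 65 of them broadly expressed. The 150 bases before the annotated start of each gene are shown 5′ to 3′ on the gene's strand, from RefSeq on build GRCm38.p6, for the 2 pairs and for 3 members described later (Cox6a1, Sdha and Atp5k). The FPKM tables rest on build mm9, so these coordinates apply to the sequences alone. Capitals mark GCGCA, any base and then GCGC, the core bound by nuclear respiratory factor 1 (NRF1), and CCGGAAG, a core of ETS factors such as the GA-binding protein, on either strand.
Cox8a, chr19:7217617-7217766, minus strand: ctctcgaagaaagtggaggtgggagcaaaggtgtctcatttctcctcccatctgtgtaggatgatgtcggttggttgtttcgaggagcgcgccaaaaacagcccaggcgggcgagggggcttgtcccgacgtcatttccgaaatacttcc
Cox8b, chr7:140900447-140900596, minus strand: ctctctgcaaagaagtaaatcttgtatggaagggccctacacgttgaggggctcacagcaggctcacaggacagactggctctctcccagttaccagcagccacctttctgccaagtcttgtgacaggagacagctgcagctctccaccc
Cox7a2, chr9:79759854-79760003, minus strand: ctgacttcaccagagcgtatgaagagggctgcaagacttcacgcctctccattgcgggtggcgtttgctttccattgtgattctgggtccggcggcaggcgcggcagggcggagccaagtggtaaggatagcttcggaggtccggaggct
Cox7a1, chr7:30184021-30184170, plus strand: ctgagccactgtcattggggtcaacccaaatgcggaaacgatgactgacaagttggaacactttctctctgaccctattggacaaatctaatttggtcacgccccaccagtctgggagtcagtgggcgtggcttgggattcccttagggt
Cox6a1, chr5:115348959-115349108, minus strand: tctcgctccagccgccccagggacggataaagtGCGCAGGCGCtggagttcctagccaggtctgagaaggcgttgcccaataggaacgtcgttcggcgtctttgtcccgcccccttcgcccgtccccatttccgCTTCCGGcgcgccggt
Sdha, chr13:74350241-74350390, minus strand: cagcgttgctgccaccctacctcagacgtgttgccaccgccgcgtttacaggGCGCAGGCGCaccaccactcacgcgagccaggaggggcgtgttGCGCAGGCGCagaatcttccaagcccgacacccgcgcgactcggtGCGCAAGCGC
Atp5k, chr5:108434400-108434549, minus strand: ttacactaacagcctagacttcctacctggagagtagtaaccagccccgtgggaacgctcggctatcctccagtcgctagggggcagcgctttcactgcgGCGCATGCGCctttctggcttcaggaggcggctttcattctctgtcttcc
Sdha carried the NRF1 letters 3 times in this stretch. Neither motif was found in Cox8b and Cox7a1 or in their broadly expressed partners Cox8a and Cox7a2, so the 2 pairs did not differ in this. In the 250 bases before the start, the NRF1 letters occurred in 12 of the 65 broadly expressed members (18.5%) and in 3.86% of 27025 promoters of all genes. These members were Atp5g2, Atp5h, Atp5k, Cox6a1, Ndufa5, Ndufa8, Ndufa11, Ndufb4, Ndufs5, Ndufs6, Sdha and Sdhd. CCGGAAG occurred in 11 members (16.9%) against 7.05% of all promoters, and the cyclic AMP response element TGACGTCA in 4 (6.15%) against 1.62%. The oestrogen-related receptor core TCAAGGTCA and the YY1 core AANATGGCG were each found in 1 member (1.54%), against 0.366% and 1.12% of all promoters. The MEF2 letters CTAAAAATA were in none of the 65, against 0.451% of all promoters. No match of 1 motif overlapped a match of another in a member, and 25 of the 65 held at least 1. Broadly expressed members had a median GC content of 56.4% in this window, against 52.0% for all promoters. None of these motifs occurred in the windows of the 4 restricted forms with a sequence, Cox6b2, Cox7a1, Cox7b2 and Cox8b.

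Members were among the more abundant transcripts of every library. The median member stood at percentile 96.5 to 97.3 at lactation and 96.2 to 97.3 at involution among genes with at least 1 FPKM. By complex, the median percentile was lowest for complex II, at 92.9 to 94.3 at lactation and 92.6 to 95.7 at involution, and highest for complex III, at 97.8 to 98.3 and 98.0 to 98.6. Of the members' summed FPKM, complex I held 28.5% to 32.5% at lactation and 31.3% to 32.5% at involution. Complex IV held 24.4% to 29.0% and 23.9% to 27.4%, and complex V 27.6% to 32.4% and 26.9% to 30.4%. Complex III held 12.4% to 13.3% and 11.9% to 12.9%, and complex II, with 4 genes, 1.37% to 1.99% and 1.36% to 1.95%. Library ranges of the stages overlapped for every complex.

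**Figure D1:**
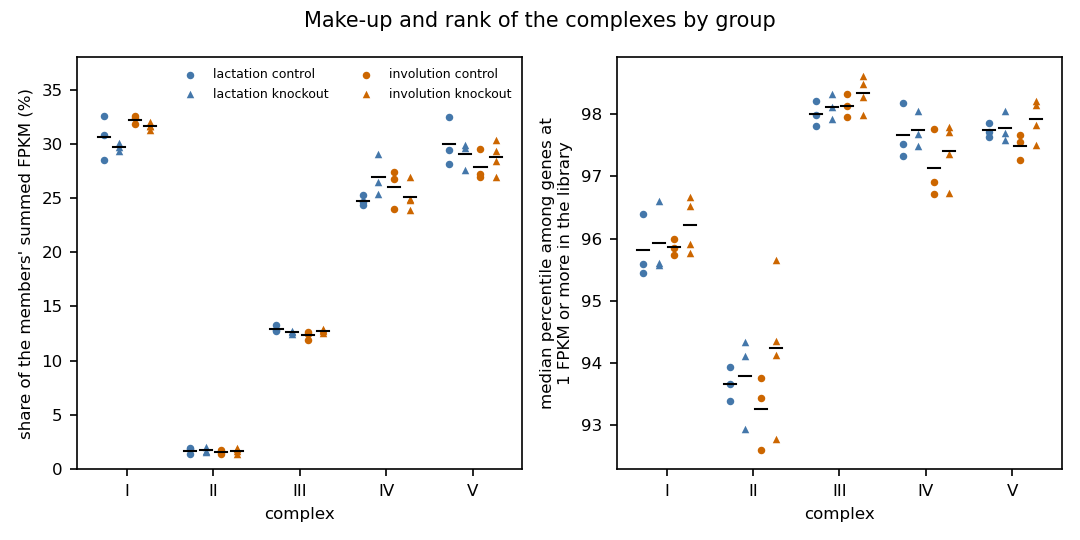
Left, the share of the members' summed FPKM (%) held by each complex; right, the median percentile of its members among genes with at least 1 FPKM in the library. Each point is a library, circles are controls, triangles are knockouts, blue is lactation, orange is involution, and bars are group means; complex II lies lowest in both panels.

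Within complexes, mean FPKM over the 13 libraries ranged widely. In complex I the highest member was Ndufa4 at 785 FPKM, a small protein named for complex I that has since been assigned to complex IV, and the lowest tested member was Ndufa4l2 at 5.45 FPKM, a relative of Ndufa4 induced by low oxygen. The 7 core subunits of complex I, which carry the flavin and iron-sulphur centres or the quinone site, lay between 24.0 (Ndufs1) and 107 FPKM (Ndufs7). In complex II the iron-sulphur subunit Sdhb stood at 113 FPKM, the membrane anchors Sdhd and Sdhc at 99.7 and 76.3 FPKM, and the flavoprotein Sdha at 59.6 FPKM. The hinge protein Uqcrh led complex III at 808 FPKM, and the core protein Uqcrc1 was lowest at 81.1 FPKM, though at involution its mean of 100.1 FPKM lay above that of Uqcrc2 (93.8) and Uqcrfs1 (97.6). Cox6a1 led complex IV at 988 FPKM, with the highest mean at lactation (915 FPKM), whereas Cox4i1 was higher at involution (1246 against 1051 FPKM). Atp5k, a small membrane subunit, led complex V at 1043 FPKM. The catalytic ATP synthase subunits Atp5b and Atp5a1 stood at 344 and 193 FPKM, and Atp5s, grouped here by symbol and no structural subunit, was lowest in its complex at 4.08 FPKM. Many neighbours in these orders overlapped: Sdhd ranged from 52.3 to 179 FPKM and Sdhc from 31.6 to 145 FPKM. Level and transcript length were inversely related across the 76 broadly expressed members (Spearman's rho -0.53 at lactation and -0.62 at involution, across genes that share libraries and are not independent). FPKM of very short transcripts depend on how fragment size was handled, which the sources used here do not state.

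At day 7 of lactation, no member passed the threshold between knockout and control, and library-to-library variation in the whole set exceeded the group differences. Of 80 members tested, 0 had an adjusted p under 0.05 (limma, Benjamini-Hochberg over all genes), and 0 had an unadjusted p under 0.05, whereas 0.0105% and 228 of the 9560 genes did. Fitted log2 differences (knockout minus control) were positive for 25 members and negative for 55, with a median of -0.09 against 0.01 over all genes tested. Medians by complex were -0.09 (I), -0.03 (II), -0.08 (III), -0.05 (IV) and -0.09 (V). In complex I, 25 of 29 accessory subunits had negative differences, whereas 5 of 7 core subunits had positive ones. In the ATP synthase, all 7 subunits of the peripheral stalk and membrane part had negative differences, and 3 of 5 subunits of the F1 head and central stalk had positive ones. A p that misses the threshold does not show equal levels: the median standard error of a member was 0.37, against 0.25 over all genes.

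The direction of these differences changed when control M44175 was left out. Its members summed to 30790 FPKM, while the other controls summed to 10340 and 11080 and the knockouts to 17720 (M44174), 12940 (M42734) and 10430 (M43767). It was the highest library for 64 of 80 members. Without M44175, 76 of 80 differences were positive with a median of 0.26, and 0 passed the threshold in limma. Knockout M44174 lay above the mean of its table for 75 of 80 members, and without it 14 differences were positive with a median of -0.26. Without control M42186, control M43768 or knockout M43767, 16, 14 and 47 differences were positive, with medians of -0.27, -0.27 and 0.03. With M44175 and M44174 both left out, a choice made after the data were seen, 59 of 79 differences were positive with a median of 0.11. Scaling moved the split as well. With scaling to the total outside milk, haemoglobin and short RNA genes, 63 of 80 were positive (median 0.13, all genes 0.16), and with quantile normalization 50. With array weights, which weight the libraries in the fit and leave the scaling unchanged, 62 were positive.

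**Figure D2:**
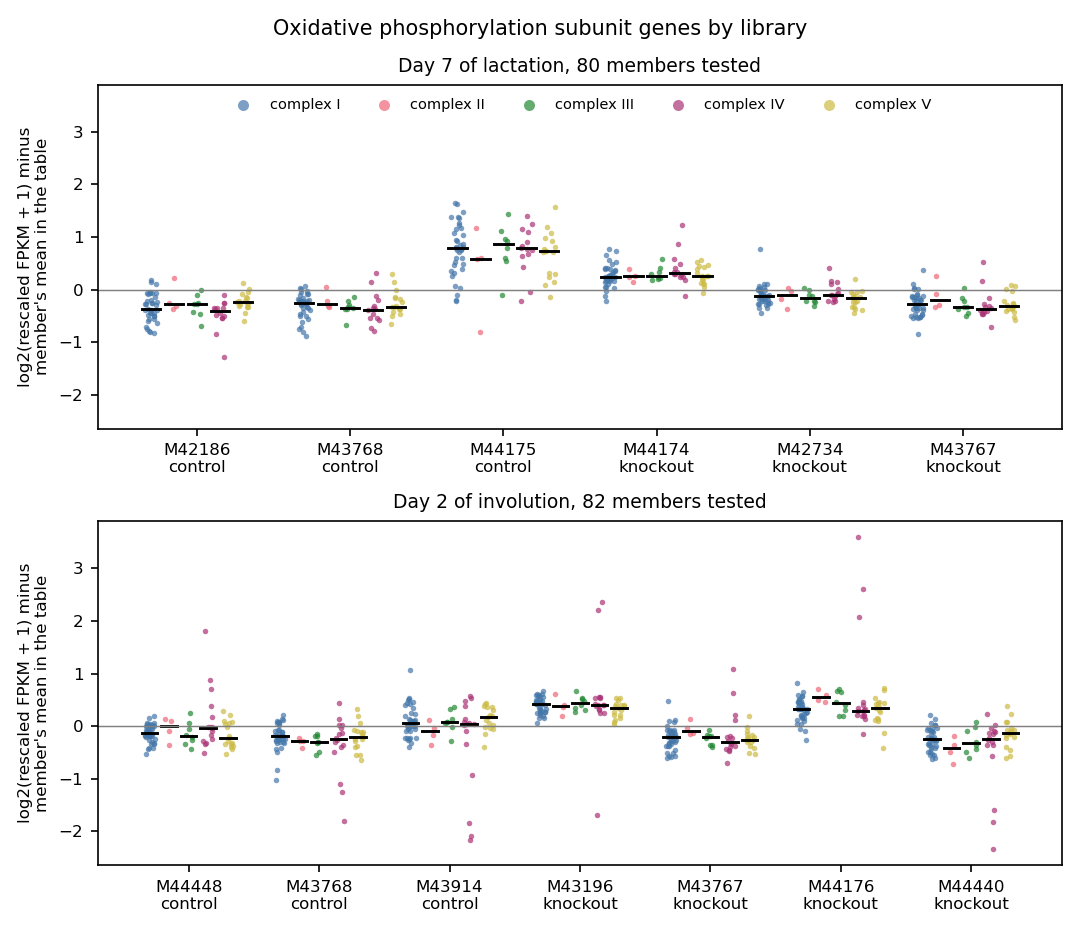
Each point is a member of complex I to V, plotted as its log2(rescaled FPKM + 1) minus its mean over the libraries of the table; bars are medians of a complex, and libraries are ordered by group. Control M44175 and knockout M44174 lie above the rest at lactation, and knockouts M43196 and M44176 at involution, in all 5 complexes.

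The excess in M44175 differed with transcript length. Against the mean of the other 5 libraries, 30 broadly expressed members with transcripts under 700 bases were 2.16-fold higher in the median, and 29 with at least 1000 bases were 1.55-fold higher. Ndufa7, an accessory complex I subunit with a 528-base transcript, stood at 550 FPKM in M44175 and at 85.0, 101, 208, 133 and 113 FPKM in M42186, M43768, M44174, M42734 and M43767. Sdha, with a 2900-base transcript, went the other way, at 24.6 FPKM in M44175 and 39.5 to 46.5 FPKM in the others. Its partners in complex II were instead highest in M44175, with Sdhd at 179 FPKM there against 52.3 to 83.3 FPKM elsewhere. The long transcripts Ndufs1 and Atp5a1 were at 0.851-fold and 0.893-fold of the other libraries. Spearman's rho between the log2 difference and length was -0.47 across 80 members and -0.48 across 9264 genes, with no test since genes share the library. Across members, rho was -0.34 in M44174, 0.49 in M42186, 0.32 in M43768, 0.16 in M42734 and 0.52 in M43767. M44175 is part of the mean that each of these libraries was set against. Genes for 80 cytosolic ribosomal proteins, which also have short transcripts, summed to 128400 FPKM in M44175 and to 33930 to 54790 FPKM in the others. The part of library preparation or RNA quality in this was not tested.

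**Figure D3:**
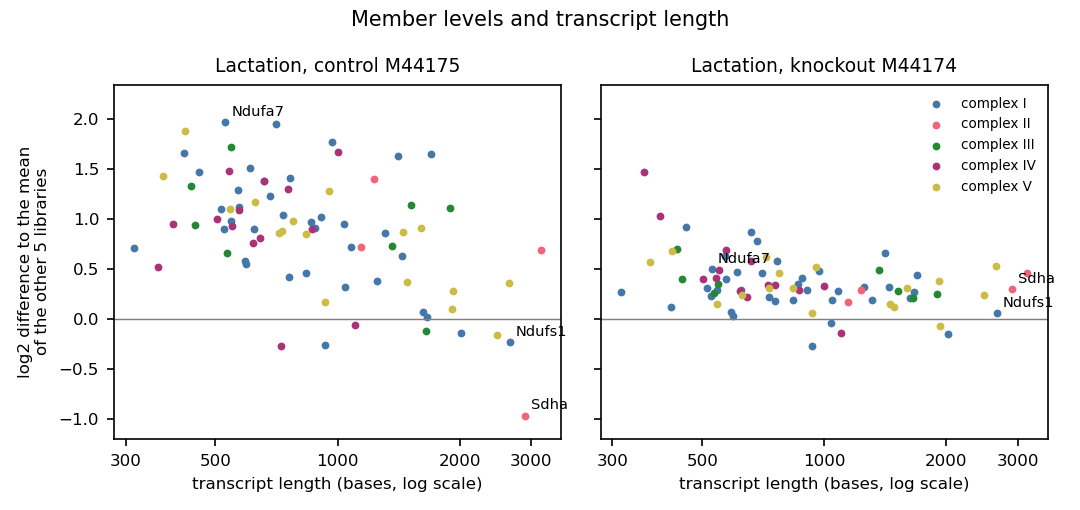
Each point is a member; the x axis is its transcript length in bases (log scale) and the y axis the log2 difference of the named lactation library to the mean of the other 5. In control M44175 short transcripts such as Ndufa7 lie highest and the long Sdha lowest, and in knockout M44174 the points slope less.

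Among single members at lactation, the smallest p of each complex belonged to Ndufa4l2, Sdha, Uqcrc1, Cox8b and Atp5sl. Atp5sl, like Atp5s, was grouped with complex V by its symbol alone. Cox8b stood at 3.80, 6.28 and 17.1 FPKM in controls M42186, M43768 and M44175 and at 27.1, 9.58 and 15.7 FPKM in knockouts M44174, M42734 and M43767. The groups overlapped, and the log2 difference of 1.05 ± 0.50 (standard error, n = 3 and 3) had an adjusted p of 0.998 with limma. Ndufa4l2 stood at 2.05, 0.495 and 1.54 FPKM in control glands and 1.35, 3.65 and 2.44 FPKM in knockout glands, a log2 difference of 0.61 ± 0.34. Sdha differed by 0.36 ± 0.31, Uqcrc1 by 0.17 ± 0.22 and Atp5sl by -0.26 ± 0.22, each with the same adjusted p of 0.998. With 1 library left out, the Cox8b difference ran from 0.68 (without M42186) to 1.54 (without M44175) and that of Ndufa4l2 from 0.32 (without M43768) to 0.87 (without M44174). The Sdha difference was 0.06 without control M44175, and that of Atp5sl was -0.13 without M42734 and -0.39 without M42186. Rescaled values of knockouts lay wholly above those of controls for Uqcrc1 and for Cox4i2, a complex IV form best known from lung, and wholly below for 0 members. The shares over all genes were 3.5% and 2.25%. Cox4i2 stood at 0.496, 1.44 and 0.995 FPKM in control glands and 1.68, 1.46 and 1.38 FPKM in knockout glands, all near the expression filter.

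At day 2 of involution most members had higher fitted levels in the knockouts, and again no member passed the threshold. Of 82 members tested, 0 had an adjusted p under 0.05 with limma and 0 an unadjusted p under 0.05, against 0.0719% and 855 of 12509 genes. Log2 differences were positive for 74 members (90.2%) and negative for 8, compared with 51.8% positive over all genes, and the median was 0.15 against 0.01. The smallest adjusted p of a member was 0.938. All 4 members of complex II and all 8 of complex III were positive (medians 0.28 and 0.23), as were 34 of 37 in complex I (0.12), 13 of 16 in complex IV (0.11) and 15 of 17 in complex V (0.14). The 7 core subunits of complex I were positive, from 0.09 (Ndufs8) to 0.34 (Ndufv1). The 5 subunits of the F1 head and central stalk were positive, from 0.11 (Atp5a1) to 0.44 (Atp5e). Of 10 broadly expressed complex IV subunits 8 were positive, with a median of 0.05. No member's rescaled values separated the groups, while 3.06% of all genes lay wholly above and 3.75% wholly below in the knockouts.

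**Figure D4:**
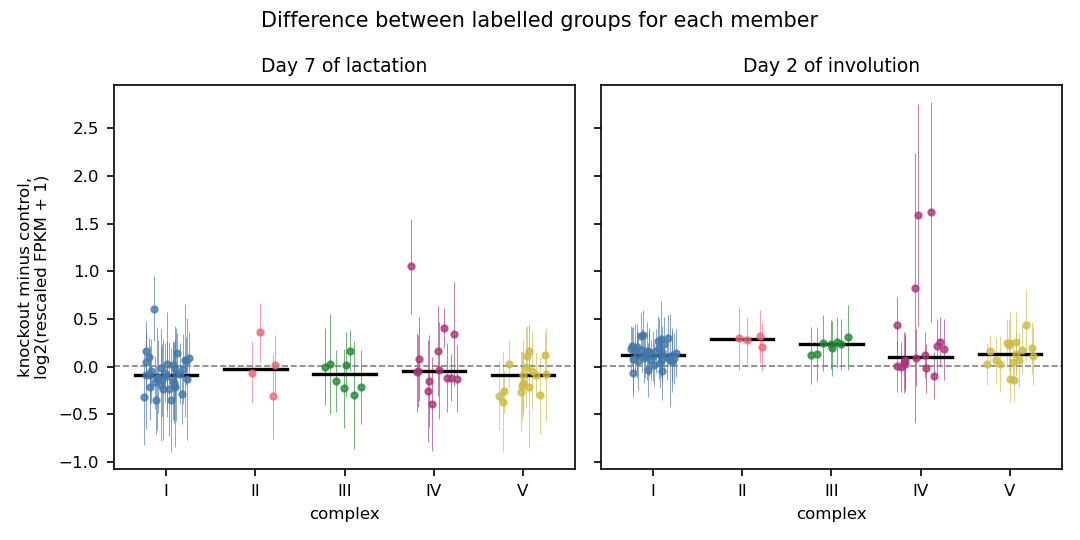
Each point is a tested member of complex I to V, with the log2 difference (knockout minus control) on the y axis and its standard error as a bar; black lines are medians of a complex and the dashed line is the median of all genes. At involution most points lie above the dashed line, with Cox7a1 and Cox8b highest at 1.62 and 1.59, and at lactation they lie on both sides.

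Knockouts M43196 and M44176 had the highest member levels. M43196 lay above the mean of the table for 81 of 82 members and M44176 for 76, whereas knockouts M43767 and M44440 lay above it for 11 and 12. Members summed to 33990 and 32450 FPKM in M43196 and M44176 and to 20040 and 22990 FPKM in M43767 and M44440, with the controls M44448, M43768 and M43914 at 22360, 22580 and 29680 FPKM. All 3 controls lay within the range of the knockouts. Without M43196, 51 of 82 differences were positive (median 0.04), and without M44176, 49 (median 0.06). The complex IV median turned to -0.021 without M43196 and -0.032 without M44176, and that of complex I fell to 0.03 without M43196. Without control M43768 the median was 0.09, and without control M43914, knockout M43767 or knockout M44440 it was 0.25, 0.26 and 0.24. Without M43196 and M44176 together, a choice made after the data were seen, 11 were positive and 71 negative, with a median of -0.15.

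The core subunit Ndufs3 of complex I, with the smallest p of its complex, showed the pattern. It stood at 125, 109 and 103 FPKM in controls M44448, M43768 and M43914 and at 191, 125, 152 and 101 FPKM in knockouts M43196, M43767, M44176 and M44440. Its log2 difference was 0.32 ± 0.24 (n = 3 and 4, adjusted p = 0.940 with limma). Sdha stood at 79.1, 60.6 and 58.0 FPKM in control glands and 96.3, 77.8, 119 and 43.3 FPKM in knockout glands, so the lowest and highest libraries were both knockouts. The ATP synthase subunit Atp5b was likewise at 389, 256 and 382 FPKM in control glands and 481, 338, 602 and 238 FPKM in knockout glands. Smallest p values in the other complexes belonged to Sdhd (0.27 ± 0.24), Uqcr10 (0.25 ± 0.27), Cox6b2 (0.43 ± 0.30) and Atp5e (0.44 ± 0.38), with adjusted p of 0.959, 0.974, 0.938 and 0.956. With 1 library left out these differences kept their sign but moved, from 0.11 to 0.40 for Sdhd, from 0.13 to 0.41 for Uqcr10, from 0.08 to 0.78 for Cox6b2 and from 0.25 to 0.77 for Atp5e. That of Ndufs3 ran from 0.17 without M43196 to 0.48 without M44440. Cox6b2, best known from testis, was low throughout, at 1.76 to 6.18 FPKM in control glands and 4.26 to 5.90 FPKM in knockout glands. Cox8a, the broadly expressed partner of Cox8b, was at 822 ± 114 FPKM (SD) in control glands and 825 ± 216 FPKM in knockout glands.

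The muscle and brown fat forms of complex IV (Cox6a2, Cox7a1 and Cox8b) varied far more between involution libraries than the broadly expressed members. At involution Cox7a1 stood at 54.8, 7.92 and 7.64 FPKM in controls M44448, M43768 and M43914 and at 141, 24.6, 186 and 7.63 FPKM in knockouts M43196, M43767, M44176 and M44440. Cox8b was high in the same libraries, at 131, 33.6 and 17.4 FPKM in control glands and 417, 122, 340 and 14.9 FPKM in knockout glands. Their log2 differences, 1.62 ± 1.15 and 1.59 ± 1.16, were the largest of all members and had adjusted p of 0.940 with limma. Without M43196 and M44176 these differences were -0.11 and 0.04. Cox6a2, the form of striated muscle, stood at 25.3, 2.59 and 0.802 FPKM in control glands and 1.35, 14.9, 91.5 and 1.52 FPKM in knockout glands (0.82 ± 1.42, and -0.27 without M44176). The ratio of the highest to the lowest of the 7 libraries was 24.4 for Cox7a1, 27.9 for Cox8b and 114 for Cox6a2, against a median of 1.89 over the 76 broadly expressed members.

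Some markers of other tissues were high in the same libraries as these forms, and others were not. Ucp1, the uncoupling protein of brown and beige fat, stood at 98.9, 16.1 and 1.27 FPKM in the controls M44448, M43768 and M43914 and at 321, 23.5, 133 and 0.378 FPKM in knockout glands M43196, M43767, M44176 and M44440. The 12 skeletal muscle markers, of which 11 or 12 had values above 0 in each involution library, summed to 1606, 161 and 111 FPKM in these controls and to 47.1, 818, 6187 and 119 FPKM in these knockouts. In M43196 Cox7a1 and Cox8b were high with high Ucp1 and with the lowest muscle sum of the stage, and Cox6a2 was low. In M44176 all 3 forms were high, with high Ucp1 and the highest muscle sum. The 6 brown fat markers summed to 251 to 328 FPKM in control glands and 278 to 739 FPKM in knockout glands. The sum was mostly Cidea, which the lactating epithelium also expresses, at 1236 to 1910 FPKM at lactation. Zic1, a marker of classical brown fat, did not exceed 0.0464 FPKM in any library. Of the other brown fat markers, Cidea and Otop1 were highest at involution in M43196 and M44176. Elovl3 was instead highest in M43767, at 21.7 FPKM against 4.95 in M43196 and 4.61 in M44176. Dio2 was highest in M44176 at 2.21 FPKM, but stood at 0.984 in M43196 and 0.939 in control M44448. The 9 white adipocyte markers summed to 4379 to 8667 FPKM in the involution controls and 4713 to 17030 FPKM in knockout glands. Their sum was 15780 FPKM in M43767, where member levels were low, and 11870 FPKM in M43196. The part of fat and muscle content in the member levels was not tested.

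**Figure D5:**
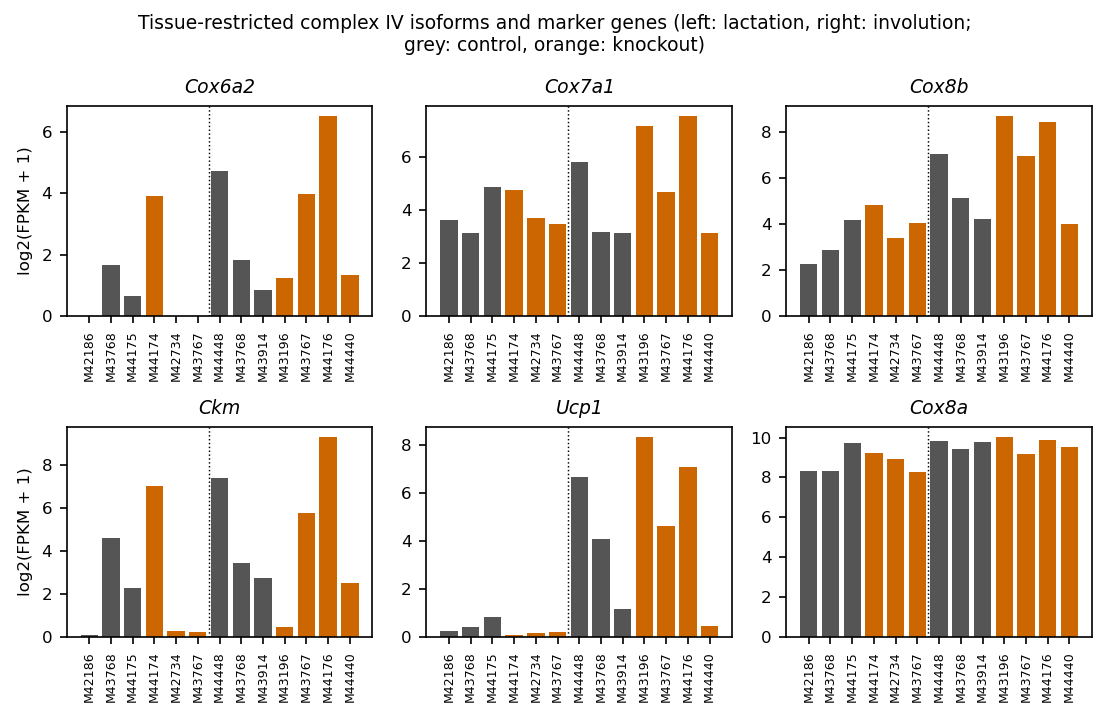
Bars give log2(FPKM + 1), from 0, in each of the 13 libraries for the restricted forms Cox6a2, Cox7a1 and Cox8b, the muscle marker Ckm (creatine kinase), the brown fat marker Ucp1, and the broadly expressed Cox8a; grey is control and orange knockout. Cox7a1 and Cox8b peak in the involution libraries M43196 and M44176, where Ucp1 is highest, Cox6a2 follows Ckm, and Cox8a varies less.

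At lactation the same forms spanned narrower ranges of FPKM. Cox7a1 stood at 11.2, 7.71 and 28.0 FPKM in control glands and 26.1, 11.8 and 9.91 FPKM in knockout glands. Cox6a2 was listed at 0 in 3 libraries (control M42186, knockouts M42734 and M43767) and reached 14.1 FPKM in knockout M44174, where the skeletal muscle markers summed to 1197 FPKM, against 2.02 to 281 FPKM in the others, with Myh7 at 0 in both groups. Ucp1 did not exceed 0.813 FPKM. Within a library, Cox8b made up 1.19% to 4.76% of Cox8a and Cox8b together at lactation and 1.95% to 28.2% at involution. Cox7a1 made up 5.72% to 9.19% of Cox7a1 and Cox7a2 at lactation and 1.91% to 36.7% at involution. Cox7b2 and Cox8c, forms best known from testis, were listed at 0 in all 13 libraries. Cox7a2l, a factor in the assembly of supercomplexes, was at 72.3 to 107 FPKM at lactation and 148 to 281 FPKM at involution, as deposited in separate tables. With the 13 libraries rescaled together its ranges overlapped, at 122.3 to 172.2 and 100.4 to 184.5.

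The effect of the knockout was not shown to differ between the stages for any member. In the joint fit of both tables, 0 of 82 members passed the threshold for the difference of the knockout effects (involution minus lactation), against 0.0789% of 12667 genes. An unadjusted p under 0.05 in limma was found for 0 members and for 424 of the 12667 genes. Differences of effect were positive for 73 members, with a median of 0.23 against 0.01 over all genes. Without lactating control M44175, 26 were positive and the median was -0.10, and without any other single library the median ran from 0.12 (knockout M43196 or lactating M43767) to 0.43 (lactating M42186). Scaling moved the split here too: 48 of 82 were positive (median 0.02, all genes -0.12) with scaling to the total and 59 (median 0.10) with quantile normalization. With array weights and the scaling unchanged, 50 were positive (median 0.06).

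The stages were set side by side without a test, since each has its own table and table and stage cannot be told apart. As deposited, all 82 members that reached 1 FPKM in 3 of the 13 libraries had higher mean log2 values at involution, with a median difference of 0.92 that lay below the 1.09 of all genes. On the deposited scale 19 members (23.2%) lay with all involution libraries above all lactation libraries, against 64.8% of genes, and 0 lay wholly below, against 1.42%. After the 13 libraries were rescaled together, the median was -0.35 for members and 0.19 for all genes. On the rescaled values 0 members lay wholly above, against 15.2% of genes, and 9 (11.0%) wholly below, a share near the 9.77% of all genes. The 9 were Atp5a1, Atp5c1, Atp5f1, Atp5g1, Atp5o, Cox5a, Cox7b, Ndufb5 and Uqcrc2. Rescaled Atp5a1, the alpha subunit of the F1 head, spanned 226 to 287 in the lactation libraries and 98.6 to 207 in those of involution. In controls, the largest ratio of mean FPKM as deposited (involution to lactation) was 6.02 for Ndufa4l2 in complex I, 2.11 for Sdhc in II, 1.53 for Uqcrc1 in III, 10.3 for Cox6a2 in IV and 3.50 for Atp5s in V. Of these, only Ndufa4l2 had the largest ratio of its complex with any of the 6 controls left out, at 4.57 to 8.06. The Cox6a2 ratio was 1.83 without involution control M44448, where Cox6b2 had the largest ratio at 8.09. Without lactating control M44175, Uqcrc1 was at 1.59 and Uqcrh at 2.89. Ratios on the deposited scale carry any offset between the tables. After the 13 libraries were rescaled together, the stages overlapped for Ndufa4l2, Sdhc, Uqcrc1, Cox6a2 and Atp5s. Rescaled Uqcrc1 spanned 85.4 to 106 at lactation and 42.2 to 100 at involution, and Ndufa4l2 0.80 to 5.95 and 4.45 to 8.24.

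The c ring of the ATP synthase, the rotor driven by protons, is made from a mature protein that 3 genes encode identically. Atp5g3 held the largest share of their summed FPKM in every library, at 48.4% to 56.3% at lactation and 44.1% to 57.4% at involution. Atp5g1 held 17.0% to 23.8% at lactation and 12.7% to 17.1% at involution, and Atp5g2 held 22.2% to 31.0% and 26.9% to 38.8%. The medians were 22.3% and 14.4% for Atp5g1, and 24.3% and 34.5% for Atp5g2, with ranges that overlapped slightly. Shares within a library do not depend on the scale of its table, but they do not remove differences between libraries that go with transcript length. The median length of the annotated transcripts was 2655.5 bases for Atp5g1, against 731 for Atp5g2 and 718.5 for Atp5g3. Which transcripts these glands express was not examined. The lowest share of Atp5g1 at lactation was in M44175, and the part of length in these shares was not tested. Between knockout and control, Atp5g1 differed by -0.14 ± 0.22, Atp5g2 by 0.05 ± 0.22 and Atp5g3 by 0.03 ± 0.29 at involution. Reads of similar genes and of processed pseudogenes, which many members have, could be split or shared by the authors' counting, so values of such members are uncertain.

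Other genes of the pathway were counted in the same fits. Of the assembly factors, which build the complexes without remaining in them, 13 of 45 had positive log2 differences at lactation (median -0.08) and 36 of 43 at involution (0.13). Enzymes of the tricarboxylic acid cycle, which supply NADH and succinate, were positive for 9 of 17 at lactation (0.02) and 17 of 17 at involution (0.21). Of mitochondrial import proteins, chaperones and carriers, 12 of 22 (0.03) and 18 of 22 (0.09) were positive, and of other respiratory chain proteins outside the symbol rule 5 of 10 (0.01) and 9 of 10 (0.33). Transcriptional regulators of mitochondrial genes were positive for 9 of 15 (0.03) and 8 of 14 (0.02). None of these lists had a gene past the threshold in either comparison. Over all genes tested, 51.2% and 51.8% of differences were positive. The counts for these lists were not repeated with libraries left out. At involution the summed FPKM of each list overlapped between control and knockout libraries. For the tricarboxylic acid cycle the lowest and highest sums were both knockouts, 792 (M44440) and 1640 (M44176), against 977 to 1141 in controls. Levels of the regulators differed. Their ranges below are FPKM as deposited in separate tables, where 64.8% of all genes lay wholly higher at involution, so they do not show a stage effect. Ppargc1a, a coactivator of mitochondrial genes, did not exceed 1.09 FPKM in any library and was highest in involution knockout M44176. Nrf1 ranged from 1.68 to 2.22 FPKM at lactation and 4.58 to 6.30 FPKM at involution, Gabpa from 2.41 to 3.17 and 5.42 to 7.27 FPKM, and Tfam, which packages mitochondrial DNA, from 2.64 to 7.00 and 5.91 to 9.51 FPKM. Esrra spanned 7.14 to 20.9 FPKM in the lactation libraries, highest in M44175, and 24.8 to 39.2 FPKM in those of involution.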

How the data were processed

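Libraries of total RNA from flash-frozen glands were made with a TruSeq RNA kit and read on a HiSeq instrument, per the labels. The authors deposited FPKM in 1 table per stage, each with 23951 symbols. The submitters' processing notes name CASAVA, cutadapt, TopHat and build mm9; the sources used here do not give versions, the program behind the FPKM or its annotation. No column was left unmapped (0). Deposited FPKM were divided within each table by a median-of-ratios factor (0.954 to 1.12 at lactation, 0.98 to 1.02 at involution) and transformed to log2(FPKM + 1), which understates changes of low genes. Genes reaching 1 FPKM in 3 libraries were tested with limma 3.58.1 (R 4.3.3, eBayes with trend, two-sided, no covariate), with Benjamini-Hochberg adjustment over all genes and a threshold of 0.05; the code was tested on simulated data. P-values set a group difference against the spread between these libraries, with variances moderated over all genes. In the joint fit, libraries with the same mouse number entered as separate units. Exact zeros were kept as 0. Transcript lengths came from GENCODE M21 (median of transcripts paired with RefSeq) for 84 of 84 members.

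Members and gene lists were chosen with earlier results of these data known. Named members were those with the smallest p, highest or lowest level and largest control stage ratio of each complex, the isoform sets, the Sdh genes, Atp5a1, Atp5b and members listed at 0 in some libraries; Ndufa7, Ndufs1, Ndufs7, Ndufs8, Ndufv1, Cox7c, members with a motif match and members separated between the stages were also named, after their values were seen. Errors are standard errors beside log2 differences and standard deviations beside FPKM. Alternatives were other scalings, pseudocount 0.1, no filter, robust variances, array weights, genes at 0 in a group left out, each library left out and, for the difference of effects, the mouse number as a random term.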

Additional observations from a re-analysis of the deposited data

Results flagged for a closer look

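In the group of 4 involution knockouts, each of 82 members was checked for a library far from the other 3, and 2 were found. Chance alone gives about 1 in 20 groups, a larger share, so these 2 do not exceed what chance gives. The check used FPKM as deposited and not the log2 values of the tests. Cox6a2 stood at 91.5 FPKM in M44176, while the other knockouts lay between 1.35 and 14.9 FPKM. The skeletal muscle markers were also highest in M44176, and their part in this value was not tested. Cox7c, a small broadly expressed subunit of complex IV, stood at 155 FPKM in M43767, below the other knockouts at 302 to 316 FPKM. The controls of that stage ranged from 203 to 369 FPKM.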

How the results depend on the processing

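No member passed the threshold under any of the alternatives run, at either stage or for the difference of effects. The counts over all genes were less steady. At lactation the count of 1 became 2 with scaling to the total or a pseudocount of 0.1, 9 with array weights, 0 without genes listed at 0 in a whole group and 0 without both M44175 and M44174, and ran from 0 to 3 with a library left out. At involution the count of 9 became 14 with robust variances, 20 with array weights and 1 without genes at 0 in a group, and ran from 2 to 9 with a library left out. For the difference of effects the count of 10 became 16 with array weights and 1 without genes at 0 in a group, and ran from 6 to 12. Without knockouts M43196 and M44176 (chosen after seeing the data), involution medians fell to -0.17 in complex I and -0.11 in complex II, and signs turned for Sdhd (-0.012), Uqcr10 (-0.082), Cox7a1 (-0.11) and Cox4i2 (-0.0565). With a library left out, signs turned for Cox7a1 at lactation (-0.19 without M43768, -0.23 without M44174, up to 0.61 without M44175), for Ndufa4l2 at involution (-0.029 without M43768, -0.079 without M43767, up to 0.16 without M44176) and for Cox6a2 at involution (-0.27 without M44176, up to 1.96 without M44448). For the difference of effects, medians turned without lactating control M44175 in complexes I (-0.15), III (-0.053), IV (-0.14) and V (-0.007), and in complex IV also without lactating M43767 (-0.0091), without M43196 (-0.0067) and with scaling to the total (-0.022). At lactation medians of all 5 complexes turned positive without M44175 (0.15 to 0.37). The cause was not tested, apart from the settings that test fewer genes or samples. Of 741 alternative values, 708 stayed within set limits, 24 moved beyond them and 9 reversed sign. The limit was a ratio for counts and the spread between libraries for complex medians and sums. For single members it was the sign and the side of the threshold. A complex median could turn sign within its limit, and the member counts of 0 are among the 708.

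No paired analysis was possible within a stage because no mouse number is shared by its groups. M43768 and M43767 occur at both stages, so a replicate block with the mouse number as a random term, chosen after the data were seen, was fitted to the difference of effects. With this block 20 genes and 0 members passed the threshold, and 60 of 82 member differences were positive (median 0.11). Same-numbered libraries correlated at only 0.0269 (M43768) and 0.0327 (M43767) in their deviations from group means, against a fitted correlation of 0.697 that rests on these 2 numbers. The unknown number of fragments, groups of 3 or 4 and the separate tables limit what can be seen: the median standard error of a member was 0.37 at lactation and 0.26 at involution.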

Other observations

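Glycolysis genes, fixed as a list for comparison, had positive log2 differences (knockout minus control) for 14 of 16 genes at lactation (median 0.37) and for 10 of 16 at involution (0.10), with no gene past the threshold in limma. Fibroblast markers were positive for 6 of 6 genes at both stages, with medians of 0.73 and 0.90. Endothelial markers were positive for 5 of 5 genes at lactation (0.63) and 2 of 5 at involution (-0.04). White adipocyte markers were positive for 9 of 9 genes at both stages (0.77 and 0.69), and 3 of them had an unadjusted p under 0.05 at lactation. Over all genes tested, 51.2% and 51.8% of differences were positive. None of these markers passed the threshold. Cytosolic ribosomal protein genes were positive for 3 of 77 at lactation (median -0.35), where control M44175 held the highest sum, and for 62 of 79 at involution (0.09).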
